A study of Mus musculus with 22 samples.

Results

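The genes described here are 10 adhesion molecules of the vessel wall: Icam1, Icam2, Vcam1, Madcam1, Sele, Selp, Mcam, Esam, Jam2 and Jam3. They were measured by all probe sets of the deposited value table whose only gene symbol in the array annotation is 1 of these names: 19 of 45101 probe sets, for 10 of 18194 genes with such a probe set. The arrays measured RNA from whole aortas of ovariectomised female C57BL/6 mice aged 2.5 to 4.5 months, 7 to 8 days after a pellet of 17beta-estradiol (E2) or placebo was implanted. The mice were wild type (WT), estrogen receptor alpha knockouts (ERaKO) or estrogen receptor beta knockouts (ERbKO), and the WT mice were littermates of the knockouts. The alleles of the knockouts and the pellet dose are not given in the sources used here. The 22 arrays, each from 5 ug of RNA of a separate aorta, comprised 5 per treatment in WT and 3 per treatment in each knockout, and this number limits the precision. All mice lacked ovaries, so the placebo groups had no ovarian estrogen.

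Leukocytes leave the blood in steps. Selectins on the endothelium (P-selectin from Selp, E-selectin from Sele) let them roll, and immunoglobulin-family receptors (ICAM-1, ICAM-2, VCAM-1 and MAdCAM-1) then bind leukocyte integrins and hold them. ESAM and the junctional adhesion molecules JAM-B (Jam2) and JAM-C (Jam3) lie at contacts between endothelial cells, where leukocytes pass through. MCAM (CD146) is found on endothelium and on smooth muscle and pericytes. Transcription of Icam1, Vcam1 and Sele is known to be induced by nuclear factor kappa B in inflamed endothelium.

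The promoters of the inducible members are shown because the nuclear factor kappa B motif is a sequence feature that Icam1 and Sele are known for. Of the 10 genes, 5 (Icam1, Madcam1, Sele, Selp and Mcam) matched the RefSeq promoter table of build GRCm38.p6, which holds 250 bases before and 50 after each annotated start. The 250 bases before the start of Icam1 (chr9:21015690-21015939, plus strand), Sele (chr1:164047984-164048233, plus strand) and Selp (chr1:164115014-164115263, plus strand) read as below, 5′ to 3′, with matches to a relaxed kappa B motif in capitals.
Icam1: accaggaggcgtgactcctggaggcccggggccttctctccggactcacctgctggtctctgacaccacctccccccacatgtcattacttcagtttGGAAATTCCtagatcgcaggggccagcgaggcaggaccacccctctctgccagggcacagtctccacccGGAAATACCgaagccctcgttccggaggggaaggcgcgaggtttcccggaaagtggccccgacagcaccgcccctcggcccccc
Sele: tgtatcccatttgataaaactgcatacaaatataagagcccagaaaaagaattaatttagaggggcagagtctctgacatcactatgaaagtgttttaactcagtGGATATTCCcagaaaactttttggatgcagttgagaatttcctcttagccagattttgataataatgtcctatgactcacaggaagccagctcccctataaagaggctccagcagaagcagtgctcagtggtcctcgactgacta
Selp: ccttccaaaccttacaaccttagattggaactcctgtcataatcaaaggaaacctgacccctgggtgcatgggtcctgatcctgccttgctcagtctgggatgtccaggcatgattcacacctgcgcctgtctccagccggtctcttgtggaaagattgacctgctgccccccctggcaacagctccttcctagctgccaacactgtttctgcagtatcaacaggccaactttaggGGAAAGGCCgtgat

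The motif was spelled GGNNNTTCC and searched on both strands of the 300-base windows, with positions counted from the annotated start as 0. Icam1 held matches at -153 and -84, the former on both strands. Sele had a match at -145 and Selp at -14, and Madcam1 had matches at -83 and -70. Mcam had none, so 4 of the 5 promoters held the motif, against 18.5% of 32851 mouse promoters of the same length. The motif was picked because members are known for it, so these shares are not a test. Members outside these 5 are not covered. The core estrogen response element motif GGTCA, on either strand, was found in Selp at -196 and -93 and in Madcam1 at -244 and 27, and 40.5% of all promoters hold it. The full palindrome, GGTCA and TGACC with 3 unspecified bases between them, was in none of the 5 and in 0.07% of all promoters. A match is a description of these letters and not evidence of binding.

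Array medians ran from 3.26 to 3.50 on the log2 scale, and 18507 to 19384 probe sets per array lay over log2 4. Esr1, the targeted gene of the ERaKO mice, averaged 8.52 ± 0.31 (SD, n = 5) in WT placebo and 5.03 ± 0.71 (n = 3) in ERaKO placebo on probe set 1460591_at. Esr2 lay between 2.34 and 2.72 on every array, so it does not check the ERbKO label. WT placebo array 4 stood apart from the others: its root mean square deviation from its group mean over the tested probe sets was 0.65, against 0.25 to 0.50 elsewhere. Of the 22 arrays it was lowest in the summed smooth muscle markers (15.27 as log2 of the summed signal) and fibroblast markers (13.32), and highest in brown (15.85) and white (15.64) adipocyte markers. The members' changes and the list medians for E2 in WT are also given without it. WT E2 array 4, which has the same number and deviated with it (r = 0.37), was kept in that setting. On main probe sets this kept array was the lowest WT E2 array for Icam2 (7.48), Vcam1 (7.66), Jam2 (7.39) and Jam3 (7.47). It was the highest for Icam1 (7.19) and neither for Selp, Mcam and Esam. Its effect on the values without WT placebo array 4 was not tested. In whole aorta, fewer cells of a type and less RNA per cell cannot be told apart.

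Of the 19 probe sets, 12 from 8 genes were tested, meaning a log2 value over 4 on at least 3 arrays. Sele and Madcam1 had none: Sele lay at 2.51 to 2.82 and Madcam1, the gut-homing addressin, at 2.29 to 2.90 on all 22 arrays. The other 5 untested probe sets belong to Selp (1449906_at and 1440173_x_at), Jam2 (1431417_at and 1431416_a_at) and Jam3 (1423504_at). Values at this level are close to background and do not show whether the RNA was there. Vcam1 had 3 tested probe sets and Jam2 had 3, and the probe set with the highest mean is used as a gene's main one. All 12 smooth muscle markers and 18 of 20 endothelial markers looked up passed the same filter, as fits the labelled tissue. So did all 8 brown and 6 of 7 white adipocyte markers with a probe set, among them Ucp1 (mean 12.82) and Fabp4 (14.67).

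**Figure D1:**
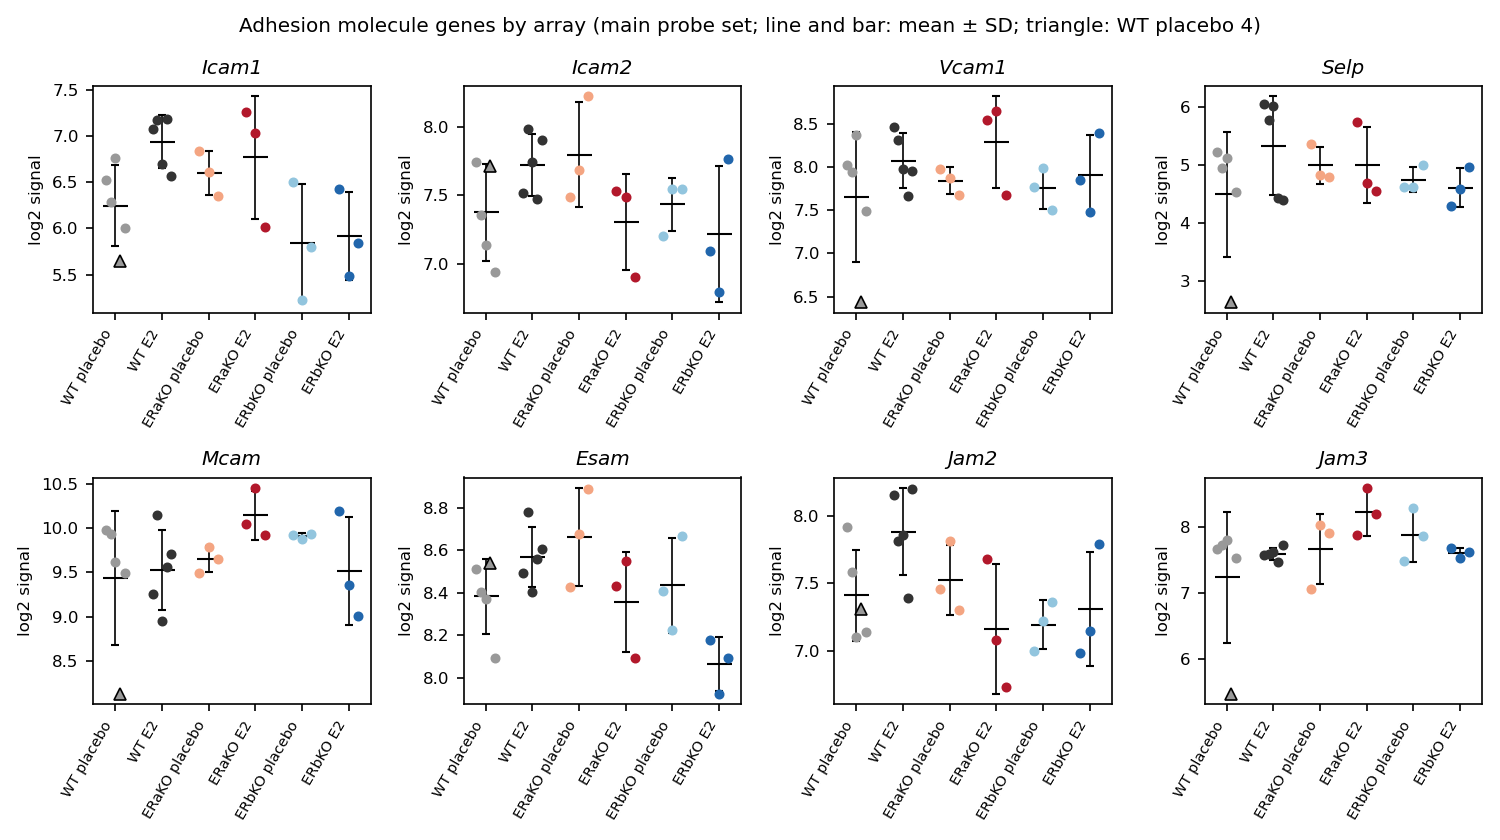
Log2 value of each member's main probe set on every array, by group, with bars at group means. WT placebo array 4 is the lowest point for Selp (2.63), Mcam (8.12) and Jam3 (5.48).

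Icam1 (1424067_at), the ligand of leukocyte beta2 integrins, was on average highest in WT mice given E2 (6.94 ± 0.29, SD, n = 5) and lowest in ERbKO mice given placebo (5.84 ± 0.64, n = 3). The 5 WT placebo arrays read 6.52, 6.29, 6.77, 5.64 and 6.01 and the 5 WT E2 arrays 7.08, 7.18, 6.70, 7.19 and 6.57. The ranges overlap, with 3 WT E2 arrays above every placebo array. The change was 0.70 ± 0.28 on the log2 scale (SE, n = 5 and 5), with an unadjusted p of 0.021 and an adjusted p of 0.52 in limma. Without WT placebo array 4 it was 0.55 ± 0.28, with an unadjusted p of 0.067.

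In the knockouts the Icam1 arrays read 6.84, 6.62 and 6.36 in ERaKO placebo and 7.26, 7.04 and 6.02 in ERaKO E2. They read 6.51, 5.22 and 5.80 in ERbKO placebo and 6.42, 5.48 and 5.85 in ERbKO E2. In both genotypes the treated and placebo arrays overlap, and the E2 changes of 0.17 ± 0.36 and 0.08 ± 0.36 (SE, n = 3 and 3) did not pass the test. All 3 ERbKO E2 arrays lay below all 5 WT E2 arrays. That difference was -1.03 ± 0.32, with a 95% interval from -1.70 to -0.36 and an adjusted p of 0.81.

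Icam2 (1448862_at), a constitutive endothelial ligand of the same integrins, averaged 7.38 ± 0.35 (SD, n = 5) in WT placebo and 7.72 ± 0.22 in WT E2, a change of 0.35 ± 0.21 that was 0.43 without WT placebo array 4. In ERaKO mice the averages were 7.80 ± 0.38 (n = 3) with placebo and 7.31 ± 0.35 with E2, the opposite order. In ERbKO mice they were 7.43 ± 0.20 and 7.22 ± 0.50. The E2 change differed by -0.83 ± 0.34 between ERaKO and WT, with an unadjusted p of 0.025 and an adjusted p of 0.99975.

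Vcam1 (1448162_at), the ligand of the integrin VLA-4, read 8.03, 7.94, 8.37, 6.44 and 7.49 in WT placebo and 8.46, 8.31, 7.97, 7.66 and 7.95 in WT E2. Its ERaKO averages were 7.84 ± 0.16 with placebo and 8.29 ± 0.53 with E2, and its ERbKO averages 7.75 ± 0.24 and 7.91 ± 0.46. Without regard to replicate number, the groups overlap throughout. The WT change was 0.42 ± 0.29 on this probe set, 0.37 ± 0.21 on 1451314_a_at and 0.51 ± 0.30 on 1415989_at, none past the test. Without WT placebo array 4 the 3 values were 0.12, 0.21 and 0.40.

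Selp (1420558_at), the selectin stored in endothelial cells and platelets, had the widest spread of the main probe sets, with a within-group SD of 0.75. WT placebo read 5.23, 4.95, 5.12, 2.63 and 4.54 and WT E2 6.06, 5.79, 6.02, 4.43 and 4.39. The treated arrays fall into 3 above every placebo array and 2 below all placebo arrays but array 4. Group means in the knockouts ran from 4.61 ± 0.34 (ERbKO E2) to 5.00 ± 0.65 (ERaKO E2). The WT change was 0.84 ± 0.44, with a 95% interval from -0.07 to 1.76 and an adjusted p of 0.65, and it was 0.38 without WT placebo array 4. In limma with same-numbered arrays as a block, the adjusted p was 0.072. Markers of platelets, which also carry P-selectin, had 5 of 10 genes tested and a median WT E2 change of 0.50 with 5 of 5 positive, or 0.39 with 4 of 5 without WT placebo array 4, and their part in the Selp values was not tested.

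Mcam (1416357_a_at) read 9.98, 9.94, 9.62, 8.12 and 9.50 in WT placebo and 9.26, 10.15, 8.95, 9.56 and 9.71 in WT E2. It averaged 9.65 ± 0.15 in ERaKO placebo and 10.15 ± 0.28 in ERaKO E2, and all 3 treated ERaKO arrays exceeded the placebo arrays. The ERaKO difference of 0.50 ± 0.39 did not pass the test (adjusted p = 0.88). The ERbKO averages were 9.91 ± 0.03 with placebo and 9.52 ± 0.61 with E2. The WT change was 0.09 ± 0.30 with all arrays and -0.23 without WT placebo array 4.

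Esam (1460356_at), the tight-junction-associated receptor of endothelial cells and platelets, varied least of the tested members, with a within-group SD of 0.19. The ERbKO E2 arrays read 8.18, 7.92 and 8.09, the ERbKO placebo arrays 8.41, 8.22 and 8.67, and the WT E2 arrays 8.49, 8.78, 8.40, 8.56 and 8.60. The treated ERbKO arrays lay below both other sets without overlap. The difference from ERbKO placebo was -0.37 ± 0.17 (unadjusted p = 0.048, adjusted p = 0.99998) and from WT E2 -0.50 ± 0.16 (unadjusted p = 0.0045, adjusted p = 0.81). In WT the E2 change was 0.18 ± 0.14, or 0.22 without WT placebo array 4.

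Jam2 (1436568_at), which encodes JAM-B of endothelial junctions, read 7.91, 7.58, 7.11, 7.31 and 7.14 in WT placebo and 8.15, 7.81, 7.85, 7.39 and 8.20 in WT E2. The WT change was 0.47 ± 0.21 (unadjusted p = 0.040, adjusted p = 0.60) and 0.45 without WT placebo array 4 (unadjusted p = 0.069). In ERaKO mice the arrays read 7.46, 7.81 and 7.30 with placebo and 7.68, 7.08 and 6.73 with E2. The ERaKO and WT changes point opposite ways, and their difference was -0.83 ± 0.35 (unadjusted p = 0.028, adjusted p = 0.99975). With E2, the difference of ERaKO from WT was -0.72 ± 0.25 (unadjusted p = 0.009, adjusted p = 0.42). The other well-measured Jam2 probe set, 1449408_at, gave -0.62 ± 0.27 for that difference and shared its direction, with a correlation of 0.68 to the main one within groups over the 22 arrays.

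Jam3 (1423503_at), which encodes JAM-C, read 7.66, 7.73, 7.81, 5.48 and 7.53 in WT placebo and 7.58, 7.59, 7.61, 7.47 and 7.73 in WT E2. Apart from array 4 the WT arrays lie within a narrow band. The WT change was 0.35 ± 0.34 with all arrays and -0.09 without that array. ERaKO E2 arrays read 7.88, 8.59 and 8.19, each above every WT E2 array, but the difference of 0.62 ± 0.39 did not pass the test (adjusted p = 0.76).

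The order of group means differed from gene to gene. Icam1 ran WT E2, ERaKO E2, ERaKO placebo, WT placebo, ERbKO E2 and ERbKO placebo from high to low, over 1.10 log2 units, and Esam ran from ERaKO placebo down to ERbKO E2 over 0.60. Across the 12 tested probe sets the largest step between neighbouring groups in such an order was 0.36, in Icam1 between ERaKO placebo and WT placebo. That step had an SE of 0.32 and did not pass the test (adjusted p = 0.96).

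E2 against placebo in WT raised no member past the test: 0 of 12 member probe sets were called at an adjusted p under 0.05, where 0.387% of all 20410 tested probe sets (79) were. At an unadjusted p under 0.05 there were 2, Icam1 and Jam2, both higher, against 7.97% of all. No member's WT arrays separated the groups, against 1.85% of all. All 12 changes were positive with a median of 0.36, where 52.2% of all probe sets were positive with a median of 0.01. Without WT placebo array 4, 10 of 12 were positive with a median of 0.29 and none passed an unadjusted p of 0.05, and 49.9% of all were positive. With same-numbered arrays as a block, 347 probe sets were called in place of 79, still with 0 members, and the smallest adjusted p was that of Selp, 0.072. The block gave 4 member probe sets with an unadjusted p under 0.05 in place of 2.

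**Figure D2:**
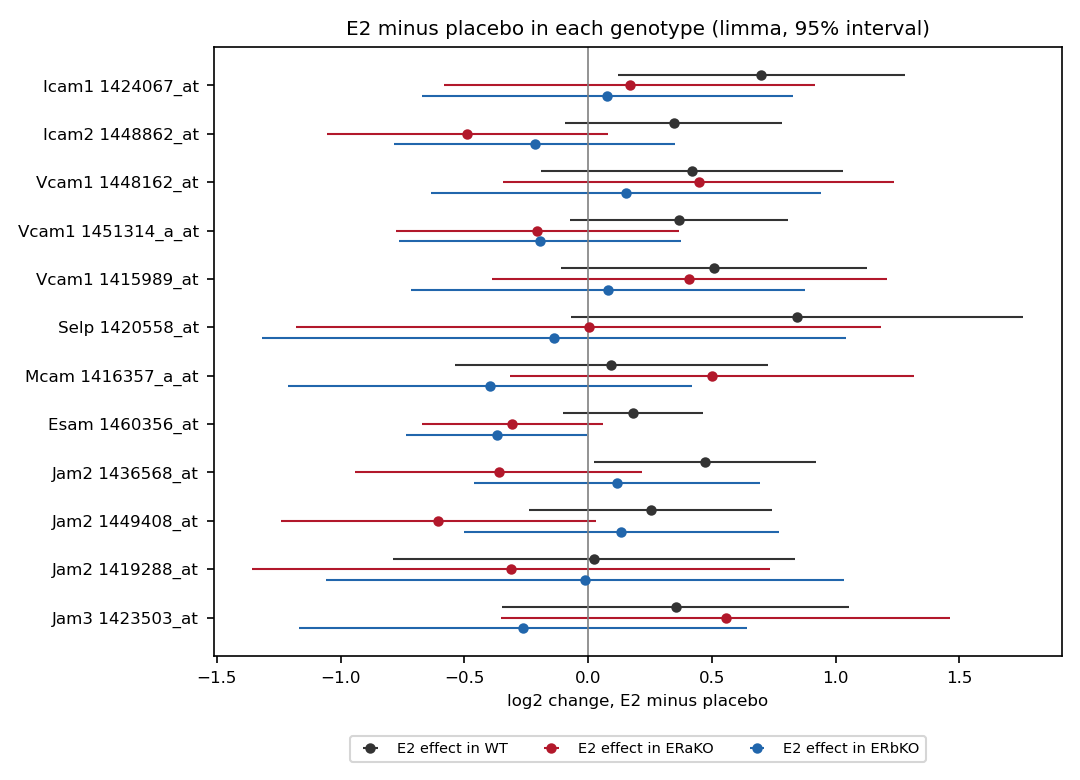
Log2 E2 minus placebo change of each tested member probe set in WT, ERaKO and ERbKO mice, with limma 95% intervals. All 12 WT points lie above 0, and the ERaKO and ERbKO points lie on both sides of it.

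**Figure D3:**
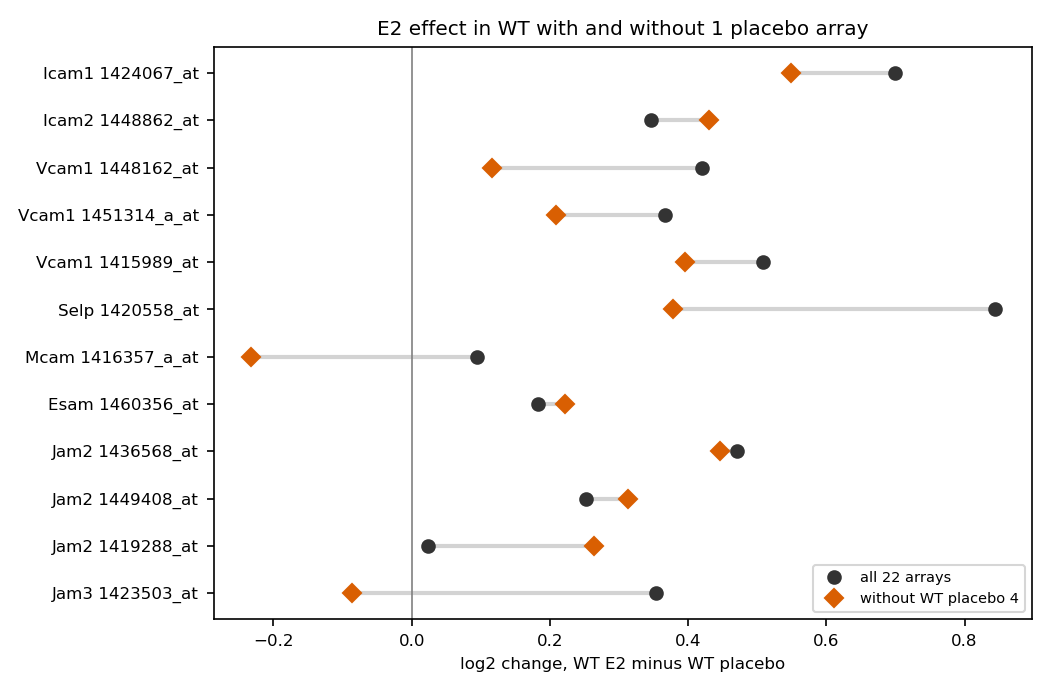
Log2 E2 minus placebo change in WT for the 12 tested member probe sets with all 22 arrays (circles) and without WT placebo array 4 (diamonds). Mcam moves from 0.09 to -0.23 and Jam3 from 0.35 to -0.09. Icam1 moves from 0.70 to 0.55, and the main Jam2 probe set from 0.47 to 0.45.

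In the knockouts E2 also called no member. In ERaKO mice 0 of 12 were called, against 0.00490% of all, and 0 had an unadjusted p under 0.05, against 6.79% of all. The arrays of Mcam (higher) and of Jam2 probe set 1449408_at (lower) did not overlap, 2 of 12 against 12.7% of all. In ERbKO mice 0 of 12 were called, against 0.0980% of all. Esam alone had an unadjusted p under 0.05, against 2.40% of all, and it alone separated the arrays, against 9.57% of all. Of the 12 changes 6 were positive in ERaKO, median -0.10, and 5 in ERbKO, median -0.08, beside 51.7% and 44.3% of all probe sets.

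The E2 change was tested for a difference between genotypes as an interaction. Between ERaKO and WT 0 of 12 were called, against 0.0686% of all. With an unadjusted p under 0.05 there were 4, all lower in ERaKO (Icam2, Esam and both well-measured Jam2 probe sets), against 3.11% of all. Without WT placebo array 4 there were 5, the same 4 and Jam3, which was higher in ERaKO (0.64), against 6.35% of all. In this interaction the 18 tested endothelial markers had a median of -0.70, with 7 lower at an unadjusted p under 0.05 and Vwf called lower (-0.74, 8 and 2 called without WT placebo array 4), and their part in the members' values was not tested. Between ERbKO and WT 0 of 12 were called, against 0% of all, and Esam (-0.55 ± 0.22) alone had an unadjusted p under 0.05, against 1.28% of all. Between the knockouts 0 were called, against 0.0441%, and 0 had an unadjusted p under 0.05, against 2.79%. In ERbKO against WT all 12 differences were negative, median -0.52, and in ERaKO against WT 9 were, median -0.51. Of all probe sets 44.2% and 45.9% were positive in these interactions. Both interactions use the WT arrays, so these directions are not separate evidence, and without WT placebo array 4 the members' medians were -0.32 and -0.40.

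Placebo groups of different genotypes showed no member past the test. In ERaKO against WT 0 were called, against 0.00490% of all, none had an unadjusted p under 0.05, against 3.62%, and none separated the arrays, against 1.75%. In ERbKO against WT 0 were called, against 0.00490%, none had an unadjusted p under 0.05, against 3.04%, and none separated the arrays, against 2.80%. The members' median was 0.26 for ERaKO, where all probe sets had a median of 0.12 with 69.6% positive, and 0.10 without WT placebo array 4. The ERbKO median was 0.08, and -0.05 without that array.

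With E2, ERaKO mice differed from WT in no member at an adjusted p under 0.05, against 0.240% of all. The main Jam2 probe set and 1449408_at, both lower, were the 2 with an unadjusted p under 0.05, against 7.80% of all, and 1449408_at (lower) and Jam3 (higher) separated the arrays, against 3.78%. Between ERbKO and WT with E2 0 were called, against 0.00490%. Icam1, Esam and Jam2 were the 3 with an unadjusted p under 0.05, all lower, against 5.74% of all, and Icam1 and Esam separated the arrays, against 4.94%. Of the 12 ERbKO differences 11 were negative with a median of -0.42, where the median of all was -0.05 with 41.7% positive. With estimated array weights Icam1 and Esam passed the test in this comparison, at -1.22 and -0.55 (adjusted p = 0.027 and 0.046), and 239 of all probe sets did in place of 1.

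**Figure D4:**
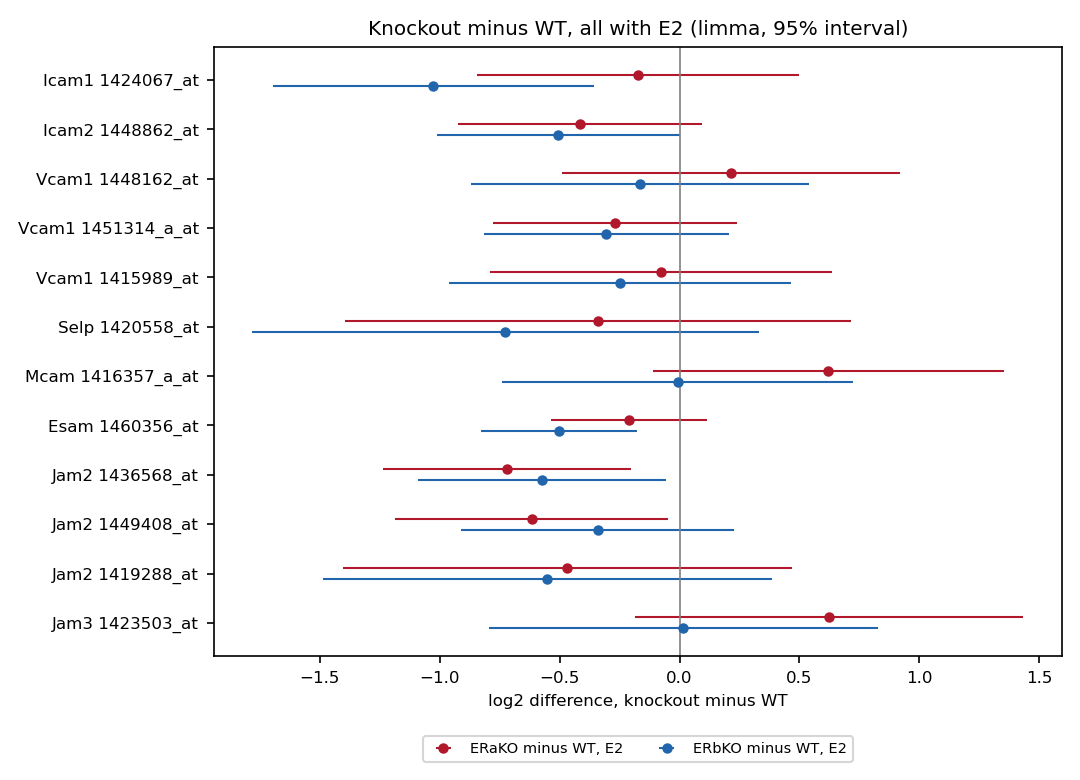
Log2 difference between each knockout and WT among E2-treated mice for the 12 tested member probe sets, with limma 95% intervals. The ERbKO intervals of Icam1 (-1.70 to -0.36) and Esam (-0.83 to -0.18) lie below 0 before adjustment for multiple tests.

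Markers of the cells that carry these receptors also differed in some of these comparisons. The 18 tested endothelial markers summed to 11.29 to 11.95 in WT placebo and 11.97 to 12.74 in WT E2 on the log2 scale, without overlap. The sum adds unlogged signals, so the brightest markers weigh most, and Vwf, the von Willebrand factor gene, had the highest mean (9.58). Vwf was also the called marker (1.93 ± 0.17). Of the 18 changes 13 were positive, and 4 were higher and 1 lower at an unadjusted limma p under 0.05. Their median was 0.18, or 0.22 with 2 called without WT placebo array 4. In ERaKO the sums were 11.999 to 12.06 with placebo and 11.46 to 12.09 with E2, and the median change was -0.38. In ERbKO the sums were 11.61 to 11.865 with placebo and 11.872 to 12.23 with E2, narrowly without overlap. The ERbKO median change was 0.05, with 11 of 18 positive and 1 marker called higher. In ERaKO against WT with E2 their median was -0.34, with 4 lower at an unadjusted p under 0.05 and Vwf called lower. In ERbKO against WT with E2 the endothelial median was -0.40, the platelet median -1.10 with 3 of 5 lower at an unadjusted p under 0.05, and the macrophage median -0.40. The macrophage median was also -0.55 in ERaKO against WT with E2. Between placebo groups it was -0.49 in ERaKO and -0.52 in ERbKO against WT. Smooth muscle markers in ERaKO against WT with E2 had a median of 0.29, with 12 of 12 positive and 2 higher at an unadjusted p under 0.05. Smooth muscle markers had a median WT E2 change of 0.30, and brown and white adipocyte markers -1.02 and -0.86. These medians were 0.11, -0.58 and -0.55 without WT placebo array 4. What part these shifts have in the members' values was not tested.

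Other genes of the adhesion pathway were measured on the same arrays. Of 17 genes in a list of leukocyte counter-receptors and selectin ligands, 10 were tested and 0 called in WT with E2, with a median of -0.11. Not all of the 17 bind the members or are particular to leukocytes. Itgb2, the beta2 integrin chain, changed by -0.24 ± 0.22. Cd34, a selectin ligand that is also in the fibroblast marker list, changed by 0.68 ± 0.21. Of 25 nuclear factor kappa B genes 16 were tested and 0 called, with a median of 0.29 (Rela 0.38 ± 0.17, Nfkbia 0.49 ± 0.26, Birc3 0.54 ± 0.20). The junction list had 14 of 22 genes tested, and Gja4, which encodes connexin 37, rose by 1.38 ± 0.21 (adjusted p = 0.002) as its called gene. Cldn5, the endothelial claudin, changed by 0.84 ± 0.24 (adjusted p = 0.23, or 0.025 with the block). Of 14 other immunoglobulin-family adhesion genes 6 were tested and 0 called, with a median of -0.09 (Ncam1 0.33, Alcam -0.26, Bcam -0.13). Without WT placebo array 4 the medians of the counter-receptor, nuclear factor kappa B, junction and immunoglobulin-family lists were -0.18, 0.21, 0.06 and -0.19, and Gja4 was still called at 1.27 ± 0.21. That setting brought Nfkbia to 0.22, Ncam1 to 0.09 and Bcam to -0.32.

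Members varied together within groups to very different degrees. Over the 28 pairs of main probe sets, the correlation of deviations from group means on 22 arrays ran from -0.12 to 0.77, and 9 pairs exceeded 0.5. The highest were Vcam1 with Selp (0.77), Mcam with Jam3 (0.71) and Icam2 with Esam (0.70). Without WT placebo array 4 these were 0.55, 0.23 and 0.68, the range was -0.36 to 0.68 with 5 pairs over 0.5, and Mcam with Esam went from 0.23 to 0.60. Icam1 and Icam2, which bind the same integrins, correlated at -0.03. The points share arrays and normalisation, and the values are descriptions.

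**Figure D5:**
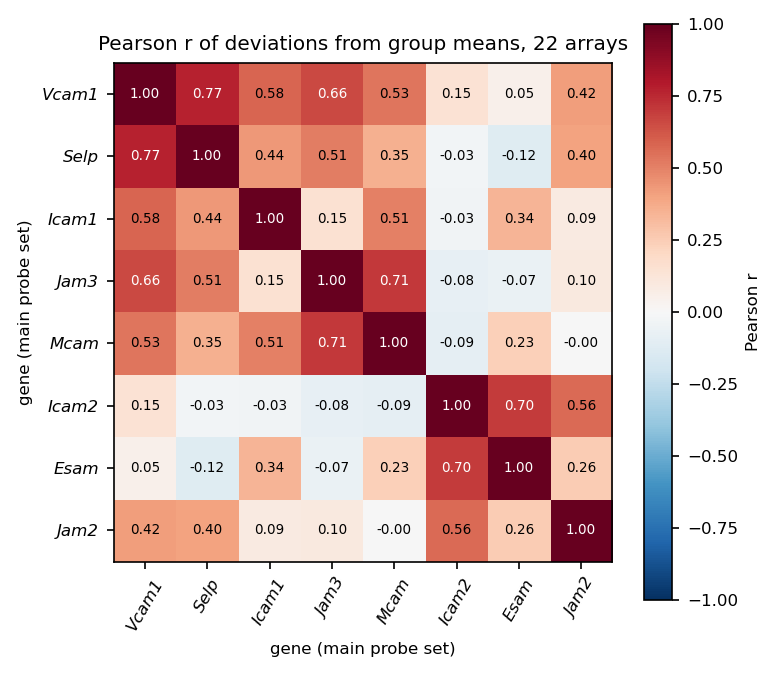
Pearson correlation between members of deviations from group means over 22 arrays, main probe set per gene. Vcam1 with Selp (0.77) is the highest pair, and Icam2, Esam and Jam2 include the pairs Icam2 with Esam (0.70) and Icam2 with Jam2 (0.56).

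By Pearson correlation over all 22 arrays, the named genes most like each member among 10253 were as follows. Jam2 was most like Srgn (0.87), Tek, the angiopoietin receptor of endothelium (0.80), and Ptprb, the endothelial phosphatase (0.78). Icam2 was most like Esam (0.78), Nck1 (0.72) and Podxl (0.70), and Esam most like Icam2, Pdia5 (0.73) and Lyrm4 (0.70). Icam1 was most like Fam149a (0.83), Abca9 (0.81) and the macrophage lectin Clec10a (0.81). Vcam1 was most like Amigo2 (0.90), Trpc1 (0.83) and Procr (0.83), and Selp most like Cytl1 (0.88), Rab8b (0.86) and Adh7 (0.85). Mcam was most like Akap17b (0.89), Tspan2 (0.88) and Arhgef17 (0.88), and Jam3 most like Cpt1c (0.95), Dctn6 (0.94) and Itga8 (0.93). Without WT placebo array 4, for the same genes in the same order, the Jam3 values were 0.87, 0.85 and 0.79, and the Jam2 values 0.87, 0.80 and 0.78. The Vcam1 values were 0.80, 0.66 and 0.70, the Selp values 0.77, 0.78 and 0.74, and the Mcam values 0.81, 0.81 and 0.77. The genes were not ranked again in that setting.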

How the data were processed

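The authors deposited 1 table of log2 values made with GCRMA, and a table of limma log2 fold changes with p-values, per the labels and the submitters' processing notes. The deposited p-values were unadjusted: a fit over all probe sets matched them within 4.94e-08. Of 45101 probe sets, 34958 carry 1 symbol, 932 several and 9211 none in the array annotation. After 64 controls were left out, those over log2 4 on at least 3 of 22 arrays were tested (20410).

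All 6 groups entered 1 group-means fit in limma 3.58.1 (R 4.3.3). Each of its 10 contrasts had Benjamini-Hochberg adjustment over all tested probe sets. A call is an adjusted p under 0.05. All tests are two-sided. Fits were tested on simulated data. Errors beside changes are SE and beside means SD. The gene's probe set with the highest mean is its main one. Replicates are separate mice. Same-numbered arrays of a genotype deviated together (r 0.25 to 0.66 in 11 of 11 pairs), so the number was also used as a block. Across genotypes 5 of 12 correlations exceeded 0.1 (r -0.34 to 0.39), and the main fit assumed no pairing. The block fit of knockout against WT nevertheless used the number across genotypes. Where the block is not named, errors, p-values, intervals and overlaps of arrays ignore the replicate number.

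Named genes were all members, Esr1 and Esr2, the 3 genes of each other list with the smallest unadjusted p for E2 in WT and any called gene, and the 3 genes most correlated with each member. Members and lists were chosen with earlier results of these data known. Alternatives were filters, quantile and median scaling, array weights, a trended and robust variance, only the compared groups, 1 probe set per gene, the block, an adjusted p under 0.1 and each array left out. Lists and pairs without WT placebo array 4 were added after seeing the data.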

Additional observations from a re-analysis of the deposited data

Results flagged for a closer look

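Outlying arrays were sought in the 24 WT groups of the 12 tested member probe sets, using Dixon's 95% critical value of 0.71 for 5 arrays. WT placebo array 4, which belongs only to the WT placebo groups, exceeded it in 4. For independent groups, chance gives about 1 group in 20 with any outlying array. The probe sets share arrays, so the groups are not independent and the count is a description. WT placebo array 4 had a Vcam1 value of 6.20 on 1451314_a_at and the next array was at 6.92. Its Selp value was 2.63 against 4.54. Its Mcam value was 8.12 against 9.50. Its Jam3 value was 5.48 against 7.53. Leaving the array out changed the WT E2 change of Mcam from 0.09 to -0.23 and of Jam3 from 0.35 to -0.09, and the members called stayed at 0. The groups of 3 arrays were too small for this check.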

How the results depend on the processing

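Of 320 recomputed member counts, 319 equalled the count first obtained, which is 0 of 12 in each of the 10 contrasts, and leaving out each array in turn gave 0 to 0 in all 220 cases. The exception was ERbKO against WT with E2, with 2 members (Icam1 -1.22 and Esam -0.55) under array weights, which called 239 probe sets in all. The main fit called at most 0.387% of all probe sets in any contrast. Counts of 0 among 12 were therefore likely under most settings and say little about single member values. With the replicate block the count stayed at 0 in every contrast, although 347 of all probe sets were called for E2 in WT and 340 in ERaKO, against 79 and 1 without it, and 155 against 49 for ERaKO against WT with E2. The block, which for knockout against WT joined same-numbered arrays across genotypes, changed no call among members. It did change the member probe sets with an unadjusted p under 0.05. These were 4 in place of 2 for E2 in WT and 0 in place of 1 in ERbKO. With E2 they were 3 in place of 2 for ERaKO against WT and 5 in place of 3 for ERbKO against WT. In the interactions with WT they were 2 in place of 4 for ERaKO and 2 in place of 1 for ERbKO. Changes near 0 turned sign: the WT E2 change of Mcam was -0.12 with array weights, -0.23 without WT placebo array 4 and -0.063 without WT E2 array 2, and that of Jam3 was -0.0034 with array weights and -0.087 without WT placebo array 4. Over all arrays left out in turn, Mcam ran from -0.23 to 0.24 and Jam3 from -0.087 to 0.49. Of 80 member values, 29 turned sign under some setting, while Icam1 for E2 in WT kept its sign in all 32 settings (0.55 to 0.83), as it did for ERbKO against WT with E2 (-1.28 to -0.81). Selp has no value under a filter of log2 over 6. The number of arrays limits the size of change that can be seen: the 95% interval for E2 in WT ran from -0.07 to 1.76 for Selp and from -0.10 to 0.47 for Esam. Signal near background limits Sele and Madcam1.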
